A study of Homo sapiens with 6 samples.

Results

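The genes of cholesterol and fatty acid synthesis were compared between CL1-5 and CL1-0, a pair of lung adenocarcinoma cell lines that share the parental line CL1. CL1-5 is labelled highly invasive and CL1-0 poorly invasive. Both were grown in RPMI medium with fetal bovine serum and antibiotics, and the labels name no further agent. Gene expression was read from total RNA on 6 one-colour arrays, 3 biological repeats a line. Each group is 1 line, so a difference belongs to this pair of lines, and in bulk RNA fewer cells with a transcript and less transcript per cell cannot be told apart. The members are 32 genes chosen by name from textbook pathway membership, with earlier results of these data known. A probe set counted for a gene only where its annotation named that gene alone. By this rule 29 of the 32 genes had 62 probe sets, out of 19775 named genes on the array. The squalene synthase gene FDFT1, the lanosterol demethylase gene CYP51A1 and the desaturase gene FADS1 had no such probe set and were not analysed here. The probe sets of CYP51A1 (2) and FADS1 (3) carry the name of another gene as well.

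Cells build cholesterol from acetyl-CoA through the mevalonate arm, which ends in farnesyl diphosphate, and a sterol arm, which runs from squalene through lanosterol to cholesterol. Fatty acids are built from the same acetyl-CoA by carboxylation, synthesis, elongation and desaturation. In the membrane of the endoplasmic reticulum, the escort protein SCAP carries the transcription factors SREBP2 (gene SREBF2) and SREBP1 (gene SREBF1) towards the Golgi when sterol is scarce, and the INSIG proteins hold them back when sterol is plentiful. SREBP2 is best known for driving cholesterol genes and SREBP1 for driving fatty acid genes, and INSIG1 is itself a target of both.

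The lines stood well apart and repeat 3 stood apart from the other repeats within both lines. Arrays of 1 line correlated at 0.989 to 0.996 (Pearson, across genes, which are no replicates) and arrays of different lines at 0.856 to 0.866. The ratio of ACTB signal at the 3′ end to that at the 5′ end, which reads out RNA quality, was 0.31, 0.40 and 0.91 (log2) in CL1-5 repeats 1, 2 and 3, against 0.53, 0.44 and 1.17 in CL1-0. Repeat 3 therefore had the highest ratio in both lines. The same ratio for GAPDH was 0.040, 0.016 and 0.197 in CL1-5, against 0.076, 0.144 and 0.252 in CL1-0. At each repeat number both genes had the higher ratio in CL1-0, and the part of this in the results was not tested. Of 5 epithelial markers, 3 exceeded the 40th percentile of the array on all CL1-5 arrays and 4 on all CL1-0 arrays, at summed signals of 4437 to 5258 in CL1-5 and 175 to 181 in CL1-0. Most of that sum in CL1-5 was KRT18, which averaged 4222 signal units in CL1-5 and 46.5 in CL1-0. EPCAM averaged 10.3 in CL1-5, under the percentile on all 3 arrays, and 29.3 in CL1-0, CDH1 averaged 35.2 in CL1-5 and 41.9 in CL1-0, and KRT19 lay at or under the percentile on all 6 arrays. The percentile lay between 19.5 and 20.3 signal units and is taken as a stand-in for background. Of 5 lung lineage markers with a probe set, 5 were above it on all CL1-5 arrays and 4 on all CL1-0 arrays, at summed signals of 408 to 516 in CL1-5 and 301 to 378 in CL1-0. FOXA2 averaged 199.6 in CL1-5 and 17.1 in CL1-0, while the other 4 had lower means in CL1-5, among them NKX2-1, the lung lineage factor, with 68.3 in CL1-5 and 79.1 in CL1-0. The fat cell markers ADIPOQ and FABP4 and the blood cell marker PTPRC were at or under the percentile on every array. Of the fibroblast markers 2 of 5, of the blood cell markers 2 of 4, of the endothelial markers 1 of 3 and of the fat cell markers 1 of 3 exceeded it on all arrays of both lines. The part of these marker differences in the results was not tested.

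In CL1-5, 9 members were higher and 6 lower, where 23.3% of all genes were higher and 28.3% lower. The sterol arm had 4 members higher and 1, TM7SF2, lower, the regulators 3 higher and 0 lower, and the fatty acid arm 1, ELOVL6, higher and 3 lower. MSMO1, the methyl sterol oxidase, was 3.11-fold higher, INSIG1 2.41-fold higher and SQLE, the squalene epoxidase, 2.26-fold higher. ACACA, the acetyl-CoA carboxylase that makes malonyl-CoA, was lower by a log2 fold change of -0.82, the acetyl-CoA synthetase ACSS2 by -0.74 and the stearoyl-CoA desaturase SCD by -0.49. FASN, the fatty acid synthase, had a log2 fold change of -0.02 with a 95% interval of -0.60 to 0.55. Each fold change sets CL1-5 over CL1-0, with n = 3 arrays a line and a constant added to the signal before the log2, so that changes of dim genes are understated.

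By limma's moderated test, with a Benjamini-Hochberg adjusted p under 0.05, CL1-5 was higher in 9 of 29 members and lower in 6, and 14 did not pass. Over all 14828 genes tested, 23.3% were higher and 28.3% lower, and 51.6% were called in either direction. The members' share of calls, 51.7%, was thus near that of all genes, with 31.0% higher and 20.7% lower. At least 2-fold changes were seen in 4 members, or 13.8%, against 16.1% of all genes, and 3 of these were higher, against 8.51% of all genes. The lines did not overlap in 19 members, against 58.8% of all genes. The members' median log2 fold change was 0.20, and that of all genes -0.03. All 29 members exceeded the 40th percentile on all 6 arrays. The median standard error was 0.11 for the members and 0.11 over all genes.

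Deviations from the line means correlated at 0.649 over genes between repeat 3 of CL1-5 and repeat 3 of CL1-0. Between the repeats 1 they correlated at 0.475 and between the repeats 2 at 0.280. Crossed, CL1-5 repeat 1 and CL1-0 repeat 2 correlated at 0.288, and CL1-5 repeat 2 and CL1-0 repeat 1 at 0.159. CL1-0 repeat 2 was thus about as close to CL1-5 repeat 1 as to CL1-5 repeat 2, which limits the block fit. Many member differences were small beside the spread between repeats. With the repeat number as a block, 17 members were higher and 6 lower, against 28.0% and 34.7% of all genes in that fit (62.7% in either direction), and the members' shares were 58.6% and 20.7%. The 8 members gained over the fit without the block were HMGCS1, FDPS, ACAT2, SC5D, EBP, SREBF1, SREBF2 and ACLY, all higher in CL1-5. In 18 members CL1-5 exceeded CL1-0 in all 3 same-numbered pairs, and in 6 CL1-0 exceeded CL1-5 in all 3. Leaving out repeat 3 of both lines gave 12 higher and 7 lower. The pair order and this fit have no share of all genes beside them, so these counts are not read as a trait of the members.

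**Figure D1:**
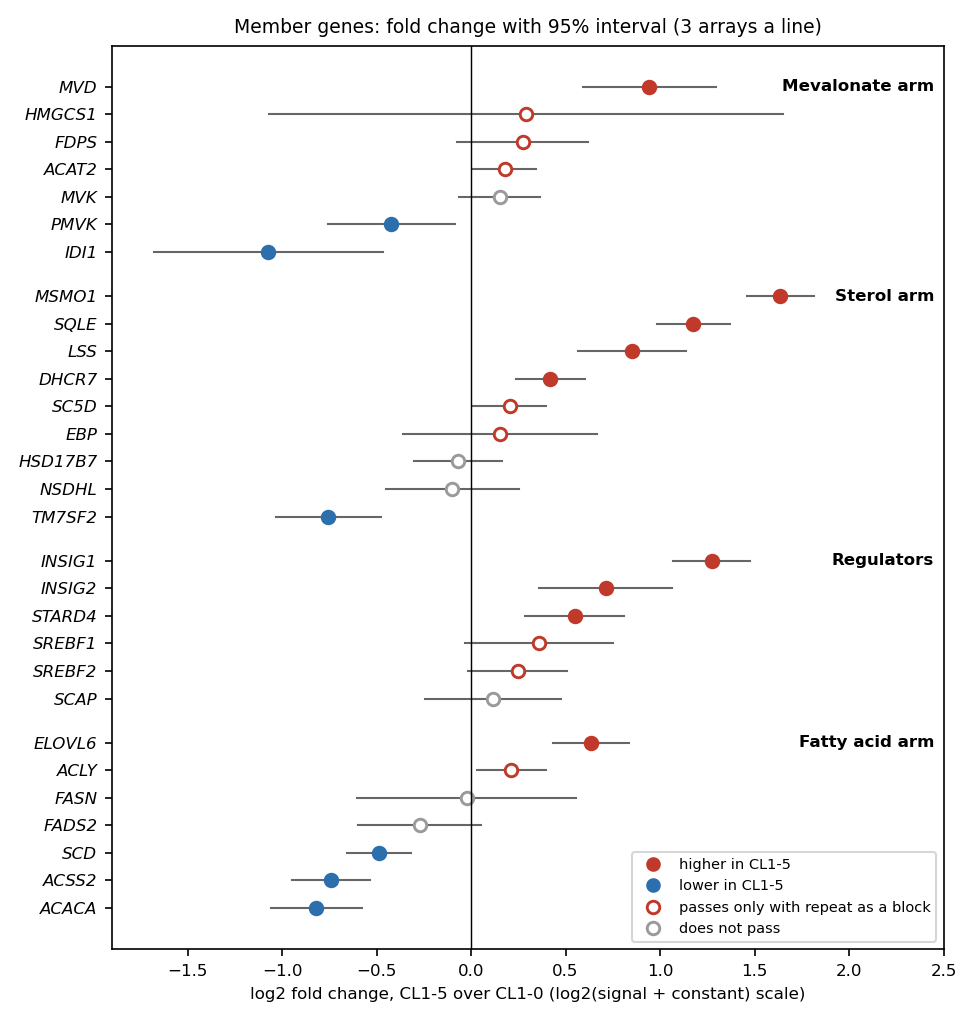
Log2 fold changes of CL1-5 over CL1-0 for the 29 members (horizontal axis) with 95% intervals, grouped by role. Filled points passed the test, rings with a red edge passed with the repeat number as a block but not without it, and grey rings passed in neither fit. MSMO1 at 1.64 lies farthest to the right and IDI1 at -1.07 farthest to the left.

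The promoters shown are those of the 4 called members with the largest fold change among those with a RefSeq promoter sequence. SQLE has none in the table used, and the place of IDI1 rests on a dim probe set that its bright probe sets do not bear out. The sequences are the 250 bases before the RefSeq start of MSMO1 (chr4:165327419-165327668, plus strand), INSIG1 (chr7:155297628-155297877, plus strand), IDI1 (chr10:1048887-1049136, minus strand) and MVD (chr16:88663092-88663341, minus strand), in build GRCh38.p14, from 5′ to 3′ along the gene. Capitals mark CCAAT or its reverse complement ATTGG, the letters bound by NF-Y, a factor known to act beside SREBPs at sterol-regulated promoters.
MSMO1: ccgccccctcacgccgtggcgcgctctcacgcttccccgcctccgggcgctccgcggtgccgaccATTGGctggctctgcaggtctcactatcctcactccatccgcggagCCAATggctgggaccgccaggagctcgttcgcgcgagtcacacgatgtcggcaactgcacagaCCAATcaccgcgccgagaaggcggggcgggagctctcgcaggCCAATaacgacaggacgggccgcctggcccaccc
INSIG1: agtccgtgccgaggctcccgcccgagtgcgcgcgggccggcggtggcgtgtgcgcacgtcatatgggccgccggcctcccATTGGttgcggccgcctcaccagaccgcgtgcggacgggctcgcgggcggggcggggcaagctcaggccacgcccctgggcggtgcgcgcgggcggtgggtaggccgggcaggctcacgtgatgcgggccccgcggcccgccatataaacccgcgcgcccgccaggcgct
IDI1: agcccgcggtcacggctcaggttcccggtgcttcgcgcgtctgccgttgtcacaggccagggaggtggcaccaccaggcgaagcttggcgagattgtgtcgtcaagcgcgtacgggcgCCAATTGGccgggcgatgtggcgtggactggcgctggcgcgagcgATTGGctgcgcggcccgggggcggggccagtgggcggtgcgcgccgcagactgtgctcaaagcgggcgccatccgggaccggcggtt
MVD: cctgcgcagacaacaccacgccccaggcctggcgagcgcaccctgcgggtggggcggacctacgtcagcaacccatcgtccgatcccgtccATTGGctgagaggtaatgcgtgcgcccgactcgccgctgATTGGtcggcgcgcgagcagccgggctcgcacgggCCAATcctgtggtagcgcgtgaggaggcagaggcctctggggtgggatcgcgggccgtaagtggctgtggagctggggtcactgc
MSMO1 holds 4 such boxes, at 185, 139, 76 and 34 bases before the start counted to the first base of each. MVD holds 3, INSIG1 holds 1, and in IDI1 2 of the 3 overlap each other.

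A set of 4 short motifs was searched on both strands of the 300-base RefSeq promoters, 250 bases before to 50 after the start, of the 28 members that have one. CCAAT was found in 19 of 28 members, or 67.9%, against 35.6% of all 27303 promoters and 36.0% of the 15840 protein-coding ones. It was found in 6 of the 8 members higher in CL1-5 that have a promoter sequence and in 5 of the 6 lower ones. The GC box GGGCGG was found in 25 members, or 89.3%, against 43.8% of all promoters and 57.4% of the coding ones. Members called higher held it in 8 of 8 and members called lower in 5 of 6. The E-box CACGTG was found in 4 members (INSIG1, LSS, SC5D and SCAP), or 14.3%, against 7.27% of all promoters. The core of the sterol response element, searched as TCACNCCAC, was found in SREBF2 alone, 133 bases before the start, and in 1.17% of all promoters. These are matches of letters in a fixed window and were not tested as binding sites.

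In the mevalonate arm, 1 of 7 members was higher and 2 lower, with a median log2 fold change of 0.18. MVD, the mevalonate diphosphate decarboxylase, had 155, 143 and 116 signal units in CL1-5 repeats 1 to 3, against 79.1, 72.2 and 54.9 in CL1-0. Every CL1-5 array lay above every CL1-0 array, and the log2 fold change was 0.94 (SE 0.15, adjusted p = 0.00083). PMVK, the phosphomevalonate kinase one step earlier, had 376, 363 and 277 signal units in CL1-5, against 528, 451 and 388 in CL1-0. The lines did not overlap, and the log2 fold change was -0.42 (SE 0.15, adjusted p = 0.041). The call did not hold without CL1-0 repeat 1 (adjusted p = 0.14) or 2 (0.0998), without CL1-5 repeat 2 (0.062) or 3 (0.11), and with all probe sets adjusted together (0.057), whereas the block gave an adjusted p of 0.00012. MVK, the mevalonate kinase, had a mean signal of 286 ± 19.1 in CL1-5 and 257 ± 13.5 in CL1-0 (SD, n = 3), and the lines overlapped (log2 fold change 0.15, adjusted p = 0.22). A dimmer MVK probe set had 0.32 without overlap, just short of the threshold (adjusted p = 0.0504 over all probe sets). Another had 0.20 with overlap (adjusted p = 0.35).

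IDI1, the isopentenyl diphosphate isomerase, gave different values through different probe sets. The probe set used by the rule, which passes over probe sets marked x, prone to cross-hybridise, if another was measured, was dim, with 24.1, 32.5 and 46.8 signal units in CL1-5, against 68.3, 58.0 and 118 in CL1-0. Its log2 fold change was -1.07 (SE 0.27, adjusted p = 0.0083). The bright probe sets, both marked x, averaged 1227 and 1219 signal units in CL1-5, against 1118 and 1080 in CL1-0. Their log2 fold changes of 0.14 and 0.17 did not pass (adjusted p = 0.25 and 0.15 over all probe sets). The fourth, also marked x, fell with -0.61 (adjusted p = 0.0068). With the brightest probe set taken for each gene, a choice made after the data were seen, IDI1 had 0.14 (adjusted p = 0.23) and 5 members were lower. The lower call of IDI1 thus rests on the choice of probe set.

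The remaining mevalonate enzymes did not pass over all 6 arrays without the block, weighted alike. ACAT2, the cytosolic thiolase that joins acetyl-CoA units, had 942, 972 and 912 signal units in CL1-5, against 827, 807 and 862 in CL1-0. The lines did not overlap, but the difference of 0.18 was small (SE 0.07, adjusted p = 0.073, and 0.016 with the block). FDPS, the farnesyl diphosphate synthase, had 1538, 1374 and 1221 in CL1-5, against 1396, 1143 and 915 in CL1-0. Here the arrays of both lines overlapped and were lowest in repeat 3, and the log2 fold change of 0.27 had an adjusted p of 0.17, or 0.0013 with the block. Without CL1-0 repeat 1 FDPS passed at 0.42 (adjusted p = 0.038).

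HMGCS1, the cytosolic synthase that makes HMG-CoA, varied more between repeats than between lines. Its brighter probe set had 573, 523 and 150 signal units in CL1-5, against 469, 428 and 120 in CL1-0, so that repeat 3 had 0.274 of the mean of repeats 1 and 2 in CL1-5 and 0.268 in CL1-0. The log2 fold change of 0.29 had a 95% interval of -1.07 to 1.65 (adjusted p = 0.72), and passed with the block (adjusted p = 0.0021) and without repeat 3 of both lines (0.28, adjusted p = 0.020). The other HMGCS1 probe set was level across repeats, with 270, 269 and 267 in CL1-5, against 261, 252 and 270 in CL1-0, and differed between the lines by 0.04 (SE 0.08, adjusted p = 0.73 over all probe sets).

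Probe sets at which repeat 3 lay at under 0.5 or over 2 times repeats 1 and 2 in both lines were few. Of 60 tested member probe sets, 3 or 5.00% were low in this way (1 of HMGCS1 and 2 of SCD) and 1 or 1.67% was high (EBP), against 0.451% low and 0.391% high of all 28152 tested probe sets. Both SCD probe sets concerned had repeat 3 at 0.485 and 0.443 of repeats 1 and 2 in CL1-5, against 0.415 and 0.382 in CL1-0. The brightest SCD probe set stayed level, with ratios of 1.07 in CL1-5 and 1.13 in CL1-0. The ACTB 3′ to 5′ ratio was also highest in repeat 3 of both lines, and its part in these values was not tested.

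**Figure D2:**
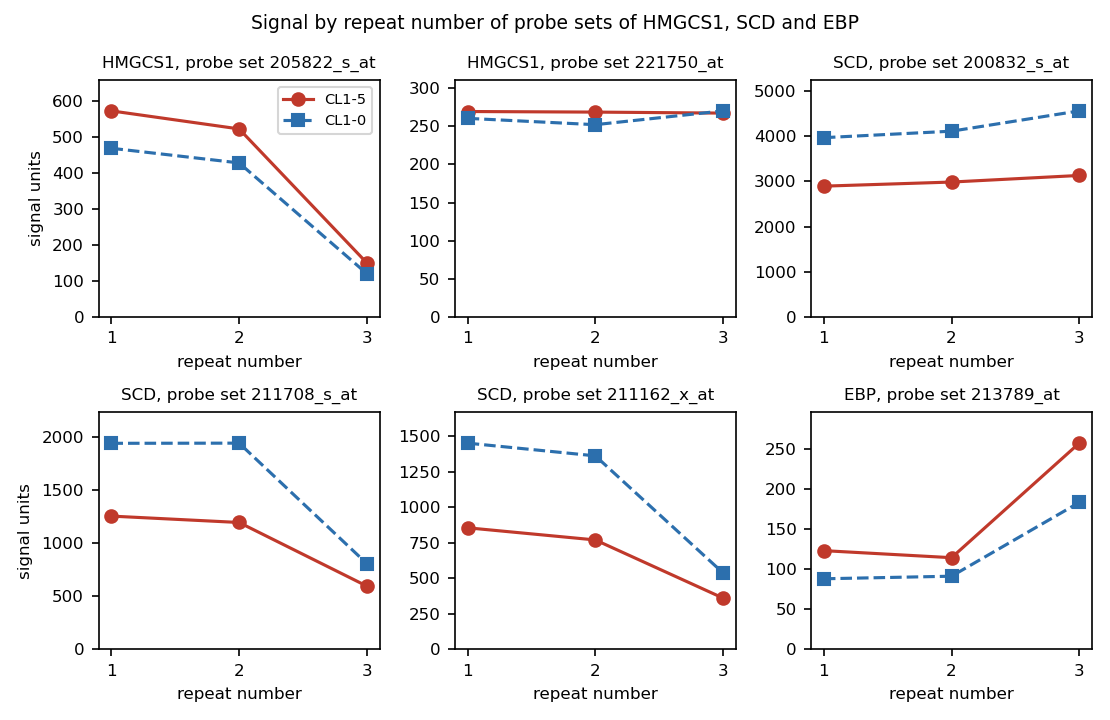
Signal units (vertical axis, from 0) by repeat number (horizontal axis) for probe sets of HMGCS1, SCD and EBP, with CL1-5 as red circles and CL1-0 as blue squares. One HMGCS1 and 2 SCD probe sets drop in repeat 3 of both lines and 1 EBP probe set climbs, while the second HMGCS1 and the brightest SCD probe set stay level, and the order of the lines at the SCD probe sets is the same in each repeat.

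In the sterol arm, 4 of 9 members were higher and 1 lower, with a median of 0.20. MSMO1 had 1409, 1479 and 1532 signal units in CL1-5, against 452, 466 and 490 in CL1-0. The lines were far apart, and the log2 fold change of 1.64 (SE 0.08, adjusted p = 3.0e-07) was the largest among the members. It is tested by 1 probe set. SQLE, which oxidises squalene and is regarded as rate-limiting in the sterol arm, had 1044, 1126 and 1212 signal units in CL1-5, against 494, 480 and 509 in CL1-0. The log2 fold change was 1.18 (SE 0.08, adjusted p = 4.5e-06), and both other SQLE probe sets measured in both lines were called higher, at 1.11 and 1.20. A dim one was under the 40th percentile on all CL1-0 arrays, so it was kept through its CL1-5 values and its call adds nothing.

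LSS, the lanosterol synthase that closes the sterol rings, had 665, 656 and 845 signal units in CL1-5, against 361, 382 and 445 in CL1-0. The lowest CL1-5 array lay well above the highest CL1-0 array, with a log2 fold change of 0.85 (SE 0.12, adjusted p = 0.00043), and all 3 probe sets were called higher, at 0.72 to 0.85. DHCR7, the reductase of the last step of one route to cholesterol, had 633, 685 and 681 in CL1-5, against 488, 520 and 481 in CL1-0. It rose by 0.42 (SE 0.08, adjusted p = 0.0021) without overlap, and its other probe set by 0.37 (adjusted p = 0.029 over all probe sets).

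TM7SF2, a sterol reductase that acts just after lanosterol demethylation, went the other way. It had 95.04, 91.2 and 89.1 signal units in CL1-5, against 184, 163 and 136 in CL1-0. The CL1-5 arrays were close together and below all CL1-0 arrays, and the log2 fold change was -0.75 (SE 0.12, adjusted p = 0.00075). SC5D, the sterol desaturase, had 806, 778 and 890 in CL1-5, against 749, 689 and 706 in CL1-0, without overlap. Its difference of 0.20 (SE 0.08) had an adjusted p of 0.073, and of 0.011 with the block. A second, dim SC5D probe set had -0.29 (adjusted p = 0.23 over all probe sets).

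EBP, the sterol isomerase, had 739, 646 and 453 signal units in CL1-5, against 664, 604 and 391.8 in CL1-0. At this probe set repeat 3 was lowest in both lines and the lines overlapped. The log2 fold change of 0.15 had a 95% interval of -0.36 to 0.66 (adjusted p = 0.62, and 0.043 with the block). The other EBP probe sets had 0.17, 0.41 and -0.01 and did not pass. The one at 0.41 was highest in repeat 3 of both lines. HSD17B7, a sterol ketone reductase, had a mean signal of 445 ± 33.5 (SD) in CL1-5 and 467 ± 43.7 in CL1-0, a difference of -0.07 on the log2 scale (95% interval -0.30 to 0.16). Its single probe set is marked x, and near-identical pseudogene transcripts may share its signal. NSDHL, which removes a methyl group from the ring after MSMO1 has acted, averaged 155 ± 13.1 in CL1-5 and 169 ± 36.6 in CL1-0, with -0.10 (95% interval -0.45 to 0.25). Neither of these enzymes passed (adjusted p = 0.62 and 0.63).

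Among the regulators, 3 of 6 members were higher and 0 lower, with a median of 0.45. INSIG1, the retention protein, had 1122, 1136 and 1151 signal units in CL1-5, against 501, 419 and 483 in CL1-0. The CL1-5 arrays were close together and all above CL1-0, with a log2 fold change of 1.27 (SE 0.09, adjusted p = 3.9e-06), and all 3 probe sets were called higher, at 0.95 to 1.27. INSIG2, its relative, which is known for weaker control by SREBPs, had 283, 282 and 234 in CL1-5, against 200, 154 and 132 in CL1-0. It rose by 0.71 (SE 0.15, adjusted p = 0.0041) without overlap. STARD4, a carrier of cholesterol between membranes, had 1212, 1122 and 945 in CL1-5, against 812, 756 and 665 in CL1-0. It rose by 0.55 (SE 0.11, adjusted p = 0.0034), again without overlap.

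The transcription factors themselves differed less. SREBF2 had 323, 325 and 408 signal units in CL1-5, against 275, 312 and 297 in CL1-0, without overlap but with a difference of 0.25 (95% interval -0.02 to 0.51, adjusted p = 0.11, and 0.019 with the block). A second SREBF2 probe set was called higher at 0.61 (adjusted p = 0.0057 over all probe sets) and the remaining one had -0.10 (adjusted p = 0.59). SREBF1 had 312, 353 and 501 in CL1-5, against 259, 304 and 327 in CL1-0. The lines overlapped, and the log2 fold change of 0.36 had a 95% interval of -0.03 to 0.75 (adjusted p = 0.11, and 0.0021 with the block). It passed without CL1-5 repeat 1 (0.50, adjusted p = 0.043). A second, dimmer SREBF1 probe set had 0.05 (adjusted p = 0.82 over all probe sets). SCAP averaged 462 ± 108 (SD) in CL1-5 and 420 ± 44.2 in CL1-0 and did not pass with or without the block (0.12, adjusted p = 0.58 and 0.25). SCAP and SREBF1 were highest in repeat 3 of both lines, and SREBF2 in repeat 3 of CL1-5.

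**Figure D3:**
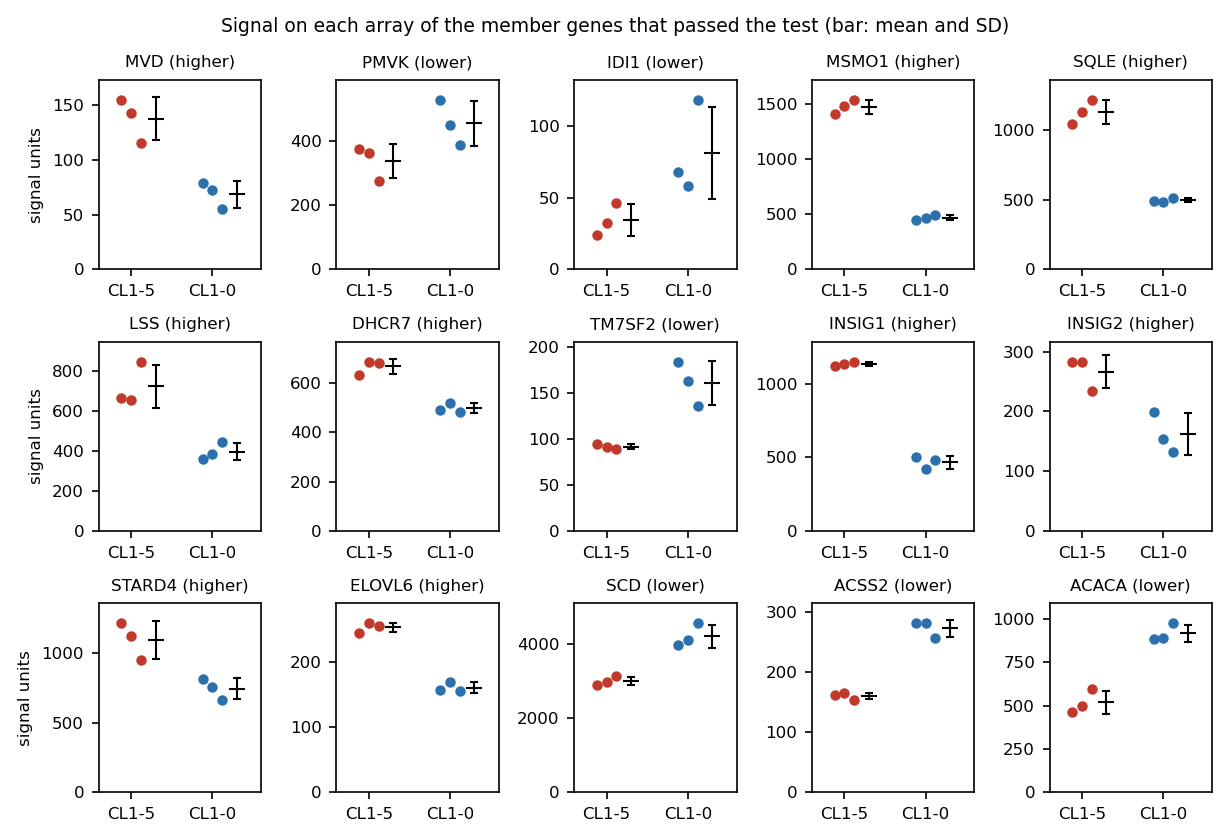
Signal units on each array (vertical axes, from 0) of the 15 members that passed the test, CL1-5 in red left of CL1-0 in blue, with the mean and SD of 3 arrays in black. In each panel the arrays of the lines do not overlap.

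In the fatty acid arm, 1 of 7 members was higher and 3 lower, with a median of -0.27. ACLY, which splits citrate into acetyl-CoA in the cytosol, had 1855, 2056 and 2148 signal units in CL1-5, against 1674, 1710 and 1834 in CL1-0. The lines did not overlap, and the log2 fold change of 0.21 (SE 0.08) lay at the threshold, with an adjusted p of 0.053, or 0.0018 with the block. It passed without CL1-0 repeat 3 (0.25, adjusted p = 0.032), without CL1-5 repeat 1 (0.27, adjusted p = 0.031), and without repeat 3 of both lines (adjusted p = 0.029). The other ACLY probe sets had 0.31 and -0.02, with overlapping lines, and did not pass (adjusted p = 0.18 and 0.96 over all probe sets). ACSS2, which makes acetyl-CoA from acetate, had 162, 164 and 154 in CL1-5, against 281, 280 and 255 in CL1-0. It fell by 0.74 on the log2 scale (SE 0.09, adjusted p = 0.00013), without overlap.

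ACACA had 463, 498 and 593 signal units in CL1-5, against 883, 889 and 974 in CL1-0. All CL1-5 arrays lay below all CL1-0 arrays, with a log2 fold change of -0.82 (SE 0.11, adjusted p = 0.00019), and the second, dimmer ACACA probe set had -1.31 (SE 0.11). FASN had 256, 351.3 and 531 in CL1-5, against 295, 366 and 467 in CL1-0. Its signal was lowest in repeat 1 and highest in repeat 3 of both lines, and the lines overlapped (adjusted p = 0.95, and 0.82 with the block). SCD, which puts the double bond into stearoyl-CoA and palmitoyl-CoA, had 2897, 2988 and 3134 in CL1-5, against 3971, 4115 and 4565 in CL1-0. The lines did not overlap, the log2 fold change was -0.49 (SE 0.07, adjusted p = 0.00053), and the other 3 SCD probe sets lay between -0.79 and -0.59, of which 1 passed. Where the SCD probe set of median signal stood for the gene, it did not pass (-0.59, adjusted p = 0.28), and that is a probe set that dropped in repeat 3.

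ELOVL6, which lengthens palmitoyl-CoA to stearoyl-CoA, was the member of this arm that rose. It had 246, 260 and 256 signal units in CL1-5, against 157, 170 and 156 in CL1-0, and the log2 fold change was 0.63 (SE 0.09, adjusted p = 0.00032). Its other tested probe set had 0.66 (SE 0.10), and another was too dim to be tested. FADS2, a desaturase of polyunsaturated fatty acids, had 85.7, 78.4 and 87.4 in CL1-5, against 127, 99.9 and 84.8 in CL1-0. The lines overlapped through repeat 3 of CL1-0. The log2 fold change of -0.27 did not pass (95% interval -0.60 to 0.05, adjusted p = 0.15), but did without CL1-0 repeat 3 (-0.40, adjusted p = 0.033) and without repeat 3 of both lines (-0.43, adjusted p = 0.019).

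The probe sets of a member agreed in part. Of 18 members with several tested probe sets, 6 had every one called in the same direction (SQLE, LSS, DHCR7, INSIG1, ACACA and ELOVL6), 9 had none called and 0 had calls in both directions. For SQLE this counts the dim probe set that was kept through its CL1-5 values. The values had the same sign in 12 of the 18. No share over all genes stands beside these agreement counts, so they are not read as a trait of the members. Over the 60 tested member probe sets 19 were called higher and 8 lower, and 46.9% of all tested probe sets were called in either direction. The lines did not overlap in 35 of the 60, against 55.6% of all probe sets. The widest span was that of IDI1, 1.25 on the log2 scale, followed by SREBF2 at 0.71.

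**Figure D4:**
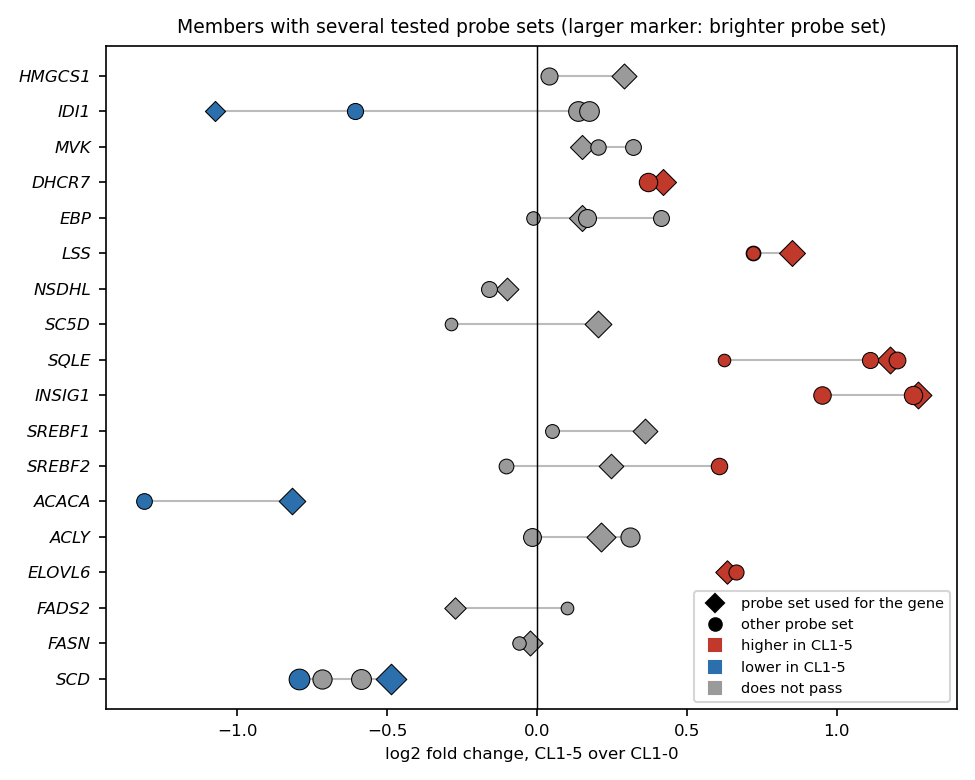
Log2 fold change of CL1-5 over CL1-0 (horizontal axis) of each tested probe set of the 18 members with several, with diamonds for the probe set that stands for the gene and larger markers for brighter probe sets. The probe sets of SQLE, LSS and INSIG1 all lie to the right of 0, those of SCD and ACACA all to the left, and those of IDI1 on both sides.

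Around the members, 4 lists of other lipid genes were drawn from textbook knowledge, with earlier results of these data known. Their counts stand beside 23.3% higher and 28.3% lower among all genes, which is no independent comparison. Sterol control and transport genes were 9 higher and 4 lower of 19 tested, with a median log2 fold change of 0.23. The cholesterol efflux pump ABCA1 had 1569, 1493 and 1602 signal units in CL1-5, against 126, 106 and 119 in CL1-0, a log2 fold change of 3.66 (SE 0.09, adjusted p = 6.2e-09). RNF139, a ubiquitin ligase of the endoplasmic reticulum, rose by 1.06 (SE 0.08), the lysosomal acid lipase LIPA by 0.81 (SE 0.11), and TMEM97, a partner of a lysosomal cholesterol exporter, by 0.77 (SE 0.07). Genes of the isoprenoid branch, which use mevalonate products for purposes other than sterols, were 4 higher and 4 lower of 13, with a median of -0.18. The geranylgeranyl transferase subunit PGGT1B fell by 1.09 (SE 0.09), while the protease of prenylated proteins ZMPSTE24 rose by 0.82 (SE 0.07), the coenzyme Q prenyltransferase COQ2 by 0.70 (SE 0.09) and the methyltransferase ICMT by 0.55 (SE 0.11).

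Other fatty acid synthesis genes were 7 higher and 6 lower of 21, with a median of 0.17. The elongase ELOVL3 had 93.6, 77.0 and 87.6 signal units in CL1-5, against 21.2, 15.5 and 17.7 in CL1-0. In CL1-0 1 of 3 arrays exceeded the 40th percentile, so ELOVL3 was kept through its CL1-5 values. Its higher call, counted among the 7, therefore adds nothing. A further gene among the 7, of smaller change, also exceeded the percentile on 1 of 3 CL1-0 arrays. It was kept the same way, and its call adds nothing either. HACD3, a dehydratase of the elongation cycle, rose by 0.98 (SE 0.15), while the acyl-CoA synthetase ACSL1 (-1.15, SE 0.09) and the elongase ELOVL4 (-1.12, SE 0.10) fell. Fatty acid oxidation genes were 1 higher and 12 lower of 18, with a median of -0.56. CPT1A, which commits fatty acids to mitochondrial oxidation, had 323, 297 and 297 in CL1-5, against 909, 801 and 813 in CL1-0. The lines lay far apart, at -1.44 on the log2 scale (SE 0.09, adjusted p = 1.6e-06). The electron carrier enzyme ETFDH (-1.50, SE 0.11), the mitochondrial thiolase ACAA2 (-1.21, SE 0.12) and CPT1C (-1.06, SE 0.13), a relative of CPT1A found in the endoplasmic reticulum of neurons, also fell. The difference between these lists was not tested.

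**Figure D5:**
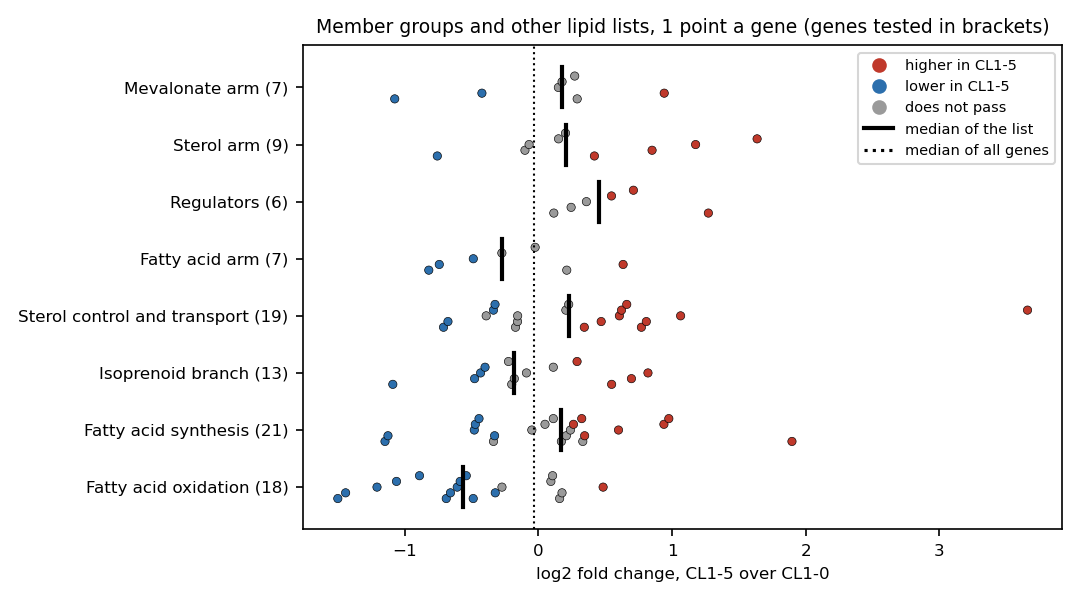
Log2 fold change of CL1-5 over CL1-0 (horizontal axis), 1 point a gene, for the 4 groups of members and 4 lists of other lipid genes, with red and blue points for genes that passed as higher or lower, a bar at each list's median and a dotted line at the median of all genes. ABCA1 at 3.66 lies farthest right, and the median of fatty acid oxidation, -0.56, is the lowest of the 8.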

How the data were processed

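For 6 arrays the authors deposited a table of linear intensity, 1 value a probe set. Per the submitters' processing notes the tool was MAS5, of a version not given in the sources used. Array medians lay between 30.2 and 30.9 signal units. Of 54675 probe sets, 41091 had 1 gene symbol in the platform annotation, 1801 several and 11721 none, and 62 were controls. Symbols were updated by gene identifier through RefSeq (GRCh38.p14, 41037 matched).

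The 10th percentile of the table, 6.85, was added to each signal before log2. Probe sets above the 40th percentile of their array on at least 3 of 6 arrays were kept, and the one of highest mean, not of suffix x where another passed, stood for the gene. CL1-5 was compared with CL1-0 by limma 3.58.1 in R 4.3.3 (lmFit, eBayes with a trend) over 14828 genes, with Benjamini-Hochberg adjustment over all of them and a threshold of 0.05. The number of arrays limits the precision, and p-values measure the spread between repeats. The steps were tested on simulated data.

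The titles number the repeats but do not say what a number shares. Deviations from the line means correlated at 0.475, 0.280 and 0.649 over genes between same-numbered repeats 1, 2 and 3. This was taken as pairing for the block. Repeat 1 of CL1-5 correlated with repeat 2 of CL1-0 at 0.288, and repeat 2 of CL1-5 with repeat 1 of CL1-0 at 0.159. Repeat 2 of CL1-0 was thus about as close to repeat 1 of CL1-5 as to repeat 2 of CL1-5. The members are named in full, and of other lists up to 4 called genes with the largest change. Members and lists were chosen with earlier results of these data known. Alternatives covered the constant, filter, scaling, prior variance, array weights, probe set choice, block, threshold and left-out arrays. Promoters are from RefSeq, with 28 of 32 members matched.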

Additional observations from a re-analysis of the deposited data

How the results depend on the processing

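The 9 higher and 6 lower members became 15 and 7 with array weights, 17 and 6 with the repeat number as a block, and 7 and 2 without probe sets of suffix x, s or a, where 19 members had a probe set left. Without 1 array the counts were 9 to 11 higher and 5 to 7 lower. The other settings, including other scalings, constants and filters, gave 7 to 12 higher and 4 to 7 lower. Apart from the block, no alternative has a share of all genes beside it, so these counts are not read as a trait of members. Across 20 settings at an adjusted p of 0.05, all 9 higher members kept direction and call wherever they were tested, as did the lower members TM7SF2, ACSS2 and ACACA.

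Sign changed in members that had not passed, and in IDI1. IDI1 had 0.14 with the brightest probe set. SC5D had -0.29 and FADS2 0.10 with the probe set of median signal and also without the suffixes, and SCAP had -0.070 with array weights and -5.8e-05 without repeat 3 of both lines. Without 1 array HMGCS1 lay between -0.32 and 0.90, EBP between -0.076 and 0.35, HSD17B7 between -0.13 and 0.0018, NSDHL between -0.25 and 0.050, SCAP between -0.066 and 0.22 and FASN between -0.29 and 0.22. For these the cause was not tested, apart from the choice of another probe set. No scaling moved the median of all genes by more than 0.1 on the log2 scale. Small differences near the spread between repeats limit what 3 arrays a line can show.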
